A study of Mus musculus with 32 samples.

Results

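Neuronal RNA transport granules are large ribonucleoprotein assemblies in which RNA-binding proteins package mRNAs, usually hold back their translation, and travel with them along microtubules into dendrites and axons. The mRNAs of 10 such proteins were examined by gene symbol, out of 55573 genes counted in the series. They were the fragile X family (Fmr1, Fxr1 and Fxr2), the double-stranded RNA-binding Staufens (Stau1 and Stau2), the purine-rich element-binding Pura and Purb, the cytoplasmic polyadenylation element-binding Cpeb1, and the heterogeneous nuclear ribonucleoproteins Syncrip and Hnrnpa2b1. FMRP, the product of Fmr1, represses translation at synapses, and its loss causes fragile X syndrome. Staufens and Pur proteins are classic components of granules purified with kinesin, CPEB1 controls poly(A) tail length of dormant dendritic mRNAs, and hnRNP A2/B1 recognises transport elements in mRNAs such as that of myelin basic protein. The data gave the mRNAs of these proteins, and neither the proteins nor the granules were measured.

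Primary hippocampal neurons from newborn mice were grown for 15 days on inserts with pores that let neurites but not cell bodies pass. The upper side gave the soma fraction, which also held neurites that had not crossed, and the lower side gave the neurite fraction. WT cultures came from C57BL/6 pups and Mettl3 KO cultures from Mettl3Flox/Flox pups. METTL3 is the catalytic subunit of the complex that writes N6-methyladenosine (m6A). Both genotypes received an AAV with Cre and dTomato under the neuronal hSyn promoter, so non-neuronal cells in the Mettl3 KO cultures kept the gene, and strain background cannot be told apart from the genotype. All cultures were silenced with 1 µM TTX and 50 µM D-AP5 for 16 h, and they were then left untreated (Ctrl) or depolarised with 55 mM KCl for 2 h. Tissue of all pups of a litter, of both sexes, was pooled, and replicates came from distinct litters, with Ctrl and KCl cultures made from the same litter. RNA-seq covered soma and neurites, Ctrl and KCl, and both genotypes in 8 groups of 2 libraries, with 33789183 to 71394235 counts per library, and DART-seq, described below, covered another 16 libraries, 8 of them WT. With 2 libraries per group, the p-values measure the spread between libraries. These came from few litters, and libraries that shared a litter were counted as separate. Groups of 2 libraries each often fail to overlap by chance, so a lack of overlap is described here and is no test. The share of all genes without overlap was not counted.

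The labels were checked before the members were compared. Mettl3 mRNA was at 17.34 and 16.65 CPM (counts scaled to library size by TMM) in WT Ctrl soma against 8.694 and 11.64 in Mettl3 KO Ctrl soma, and the KO libraries were below the WT libraries in each of the 4 matched pairs of groups. These counts cover all exons of Mettl3, deleted or not. Replicates varied far more in Mettl3 KO than in WT: over 15170 genes, the SD of the log2 ratio between replicates was 0.194 to 0.395 in the WT groups and 0.547 to 1.45 in the KO groups. The KCl-treated Mettl3 KO replicate 1 stood apart, with summed astrocyte markers at 10074 CPM in soma and 19318 in neurites, against 1256 to 3377 in the WT libraries, and summed neuron markers at 1222 and 728. Its oligodendrocyte lineage markers were at 3834 CPM in soma and 8236 in neurites, against 70.45 to 124.9 in WT. Its microglia markers were at 228.3 and 165.9 CPM, against 10.72 to 26.31 in WT. Fibroblast and vessel markers were at 142.3 and 768.8 CPM, against 16.32 to 91.03 in WT. The WT comparisons were therefore fitted on the 8 WT libraries.

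The m6A status of the members came from DART-seq, in which the APOBEC1-YTH fusion deaminates cytidines next to m6A and the resulting C-to-U (C2U) conversions are counted in reads. Sites had been called by the authors with at least 50 reads and with more editing in WT than in Mettl3 KO, so the difference from KO was fixed by the site calls. Of the 10 members, 7 were among the 5643 RNAs with called sites, with 35 of the 18231 sites between them. No site was listed for Fmr1, Cpeb1 or Hnrnpa2b1. The share of listed RNAs rose with expression, from 23.9% of genes with a mean WT count of at least 10 to 60.2% at a mean count of at least 1000, so a missing entry is not a measurement of absence.

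Purb and Fxr2 carried the most sites. Purb had 12 sites, of which 10 lay in its 3′UTR of 7313 bases, and Fxr2 had 11, of which 6 were coding, 3 were in the 3′UTR and 2 in the 5′UTR. Stau1 had 6 sites, Syncrip and Stau2 had 2 each, and Pura and Fxr1 had 1 each. Over the 35 sites, 18 were in 3′UTRs, 15 in coding sequence and 2 in 5′UTRs. The most edited sites of each RNA are printed below to show where and in which sequence the modification was called (the single Pura site is named only). Each run is 21 bases of the GRCm38 genome on the gene's strand, 5′ to 3′, with the RAC core in capitals, in which A is the inferred m6A and C the edited base.
Purb, 3′UTR, chr11:6468603-6468623, minus strand: tgtatttgGACtttttttttc
Purb, 3′UTR, chr11:6469602-6469622, minus strand: aattttgaAACttaaatttgg
Fxr2, 3′UTR, chr11:69652858-69652878, plus strand: gggtgtgtAACagggtcatac
Fxr2, coding exon 14 of 17, chr11:69651553-69651573, plus strand: gcctcttgGACacatctgaac
Stau1, 3′UTR, chr2:166948707-166948727, minus strand: gaatccttGACtccctgcccc
Stau1, coding exon 9 of 12, chr2:166951080-166951100, minus strand: gtaacaagGACgaggagttca
Stau2, 3′UTR of a shorter transcript, chr1:16344728-16344748, minus strand: tgtcaaccGACgggatgagac
Syncrip, coding exon 3 of 12, chr9:88479838-88479858, minus strand: tcaatgaaGACggcgcattgg
Fxr1, coding exon 13 of 17, chr3:34061914-34061934, plus strand: gatcgagaGACtcgacatcag

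The first Purb site above was edited in 23.7% of WT reads, more than 99.4% of all called sites, and lay 6299 bases after the stop codon, near the end of the single Purb exon. The second Purb site was edited at 9.13%. Purb also had 3 AAC sites at 3499, 3514 and 3521 bases after the stop codon, where the sequence is rich in A and C. The leading Fxr2 site, 169 bases after the stop codon, was edited at 16.7%, and its leading coding site at 7.85%. In Stau1 the leading 3′UTR site reached 9.79% and the exon 9 site 7.46%. The coding Syncrip site reached 10.6%, the Stau2 site 5.18% and the Fxr1 site 1.73%. Member sites were thus a small set of well-edited positions within many weakly edited ones: their median was 3.04%, against 3.54% over all called sites. The core was GAC at 21 of the 35 sites (60.0%, against 53.7% of all sites) and AAC at 14 (40.0% against 46.3%).

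The deposited score per RNA combines its sites, as the authors' mean over the libraries of a kind, with no error. The authors' soma and neurite averages each pooled Ctrl and KCl libraries, so these scores do not describe cultures at rest alone. The score was not always the sum of the deposited site fractions: the 2 were equal, to within a relative difference of 0.0001, in 22.6% of RNAs, and for Purb the score was 0.720 and the sum 0.657. Purb had the highest WT score of the members, above 99.4% of the listed RNAs. The WT score of Fxr2 was 0.361 and that of Stau1 0.279, above 93.0% and 87.3% of RNAs. Syncrip stood at 0.136, near the middle, and Stau2 at 0.0531, Pura at 0.0232 and Fxr1 at 0.0173 were in the lower part. The order differed for the score per called site. By that measure Syncrip was above 80.0% of RNAs, Purb above 73.8%, Stau1 above 59.0% and Fxr2 above 37.1%. Stau2 was above 25.8%, Pura above 19.6% and Fxr1 above 9.87%. The ratio of neurite to soma score was highest for the Staufens. Stau1 had 0.144 in soma and 0.457 in neurites, a ratio of 3.18, and Stau2 had 0.0252 and 0.0844, a ratio of 3.36. These ratios were above those of 92.3% and 93.3% of RNAs, and the median RNA also had a higher score in neurites, by a ratio of 1.30. The low Stau2 scores rested on 2 sites, both in the 3′UTR of the shorter transcript. Purb was at 0.674 in soma and 0.762 in neurites, while Fxr2 (0.392 and 0.310), Pura (0.0304 and 0.0146) and Syncrip (0.137 and 0.131) had the higher score in soma. In all, 4 of the 7 members had the higher score in neurites, against 68.8% of all listed RNAs. These scores carry no replicate values, so no test was run on them here. The authors compared soma and neurite editing per RNA with a Wald test on a fitted model, and those results were not used.

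**Figure D1:**
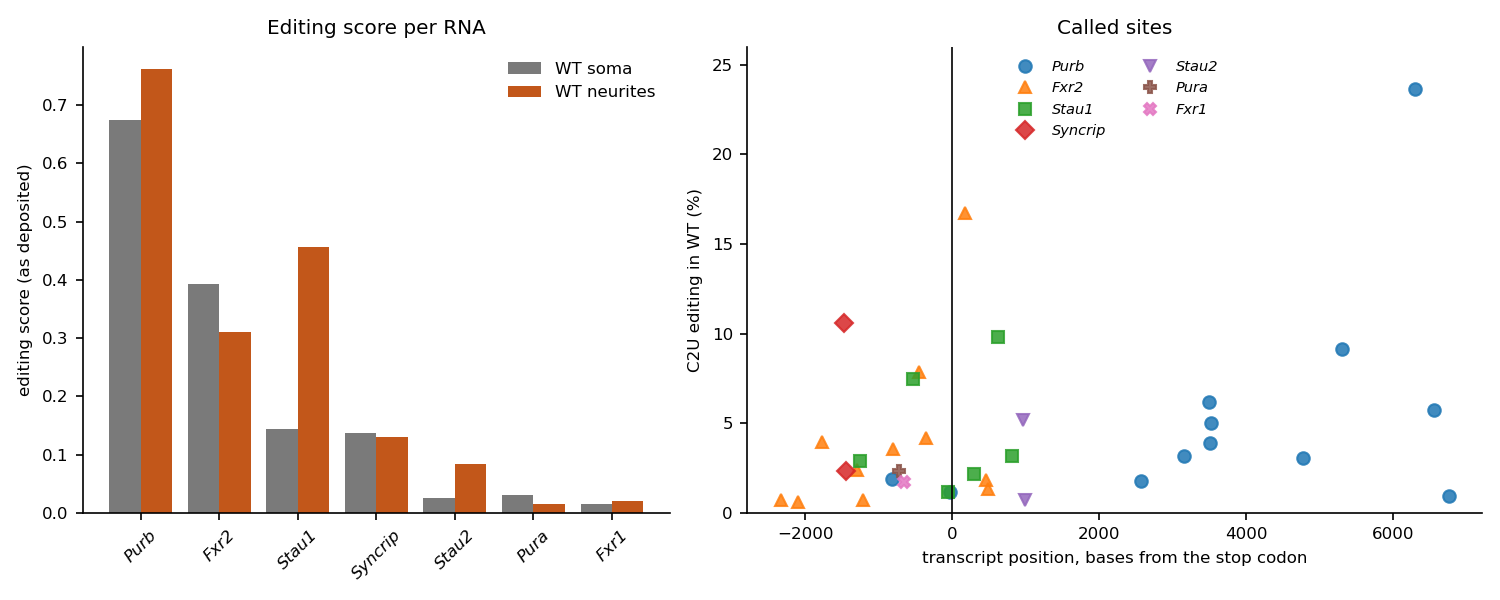
Left, deposited WT editing score of the 7 listed members in soma (grey) and neurites (orange), Ctrl and KCl pooled, with no error bars because no replicate values were given. Right, WT C2U editing in percent at each of the 35 sites against the transcript position in bases from the stop codon (Stau2 by its shorter transcript); the Purb site at 6299 bases and 23.7% is the highest point.

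The 10 mRNAs covered a wide range of levels. Per length, in CPM per kilobase of exon (FPKM), Hnrnpa2b1 had the highest level in WT Ctrl soma (39.2 ± 2.21, SD, n = 2), followed by Purb (26.2 ± 0.224), and Fmr1 had the lowest (2.38 ± 0.102). In WT Ctrl neurites the top pair changed places, with Purb at 56.3 ± 8.81 and Hnrnpa2b1 at 29.0 ± 3.18 FPKM. Purb was then above 94.2% of the 23200 genes tested, and Fmr1 above 53.5%. Fxr2 (13.2 ± 0.860) and Stau1 (13.0 ± 0.962) lay side by side in WT Ctrl soma, and Stau2 (9.42 ± 0.0296) and Pura (7.11 ± 0.471) were next. Fxr1 (5.11 ± 0.0645), Cpeb1 (4.83 ± 0.503) and Syncrip (4.70 ± 0.225) differed by less than the spread of Cpeb1. The inserts also hold glia, so these are levels of the whole culture, and fewer cells of a type cannot be told apart from less RNA per cell. Some exon bases overlap other genes: 285 of Purb with Gm11973 and 178 of Fxr1 with Dnajc19 on the opposite strand, and 344 of Syncrip with Gm20537 on the same strand. The library kit does not mark strand, so reads over those bases could not be assigned with certainty.

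**Figure D2:**
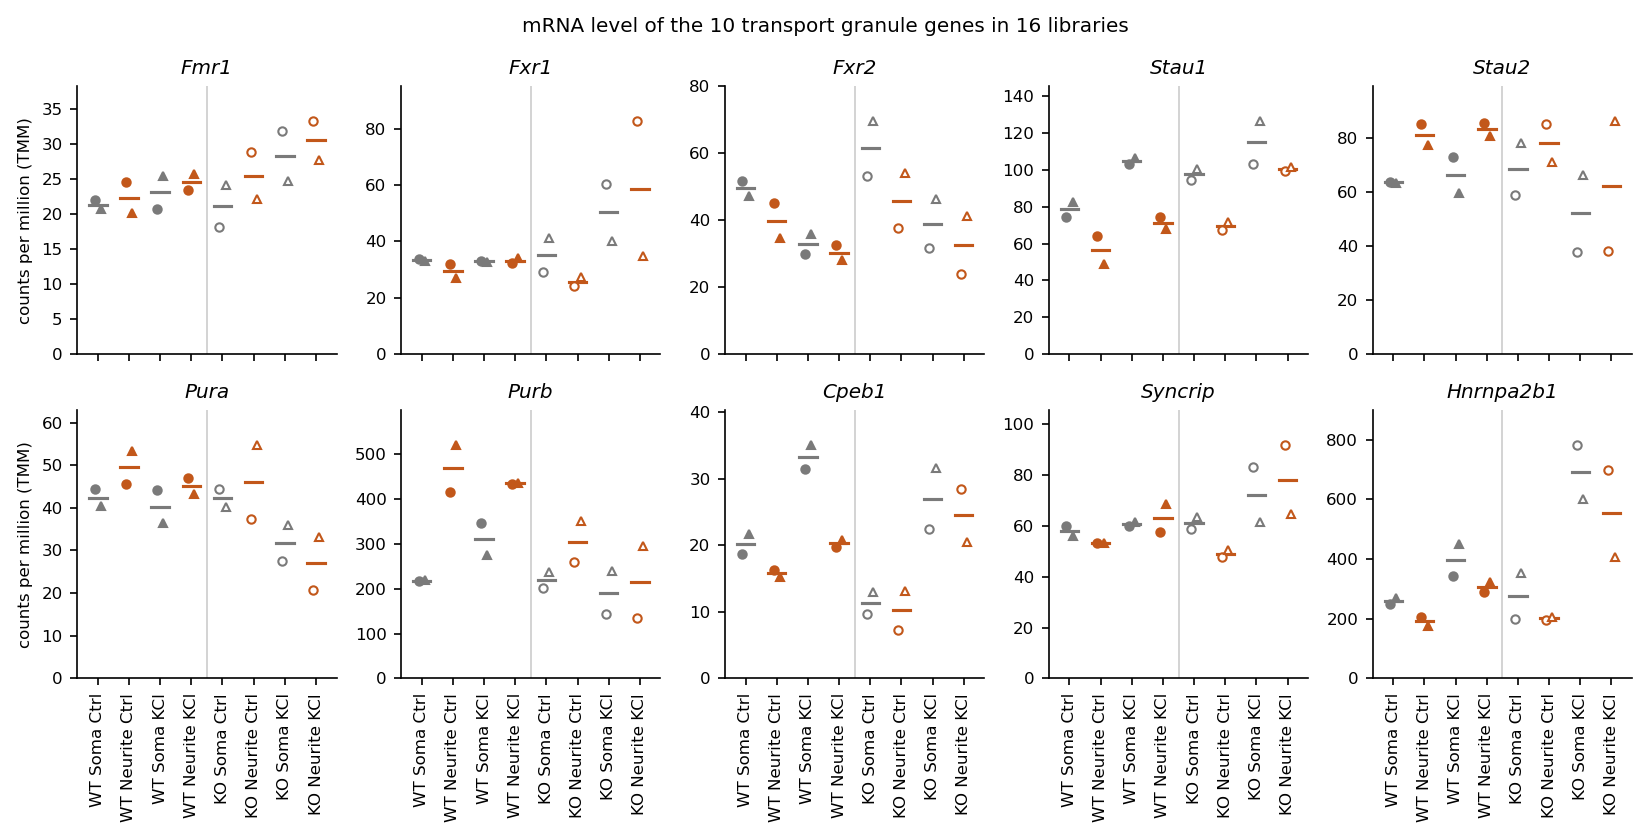
mRNA level of each member in CPM (TMM-scaled, linear axis from 0) in each of the 16 libraries, grouped by genotype, compartment and treatment, with the bar at the group mean. Circles are replicate 1 and triangles replicate 2, filled for WT and open for Mettl3 KO, grey for soma and orange for neurites. Purb was at 416.8 and 520.4 in WT Ctrl neurites and at 216.5 and 219.1 in WT Ctrl soma.

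The first comparison asked which members were enriched in WT neurites at rest. Purb was the single member called higher in neurites by the rule of at least 1.5-fold with adjusted p at most 0.05. Of all 23200 genes tested, 8.99% were called higher in neurites and 4.52% lower, so 1 of 10 called higher and 0 of 10 lower is a share near the background. The median log2 change was -0.22 over the members and -0.10 over all genes tested. By adjusted p alone, Stau1, Cpeb1 and Hnrnpa2b1 were lower in neurites.

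Purb mRNA stood at 216.5 and 219.1 CPM in WT Ctrl soma and at 416.8 and 520.4 in WT Ctrl neurites. The groups were far apart, and both neurite libraries lay above both soma libraries. The log2 neurite-to-soma ratio (FC_N/S) was 1.04 (SE 0.144, 2.06-fold, edgeR quasi-likelihood adjusted p = 0.00122). Its relative Pura, which binds the same kind of purine-rich element, had 44.32 and 40.36 CPM in soma and 45.62 and 53.28 in neurites, with log2 FC_N/S 0.16 (SE 0.138, adjusted p = 0.442). In a fit on all 16 libraries, in which the KO libraries set the spread, the Purb value was 1.14 and its call was lost (adjusted p = 0.477).

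The Staufens had values of opposite sign. Stau2, the mainly neuronal paralog, was at 63.69 and 63.41 CPM in WT Ctrl soma and at 85.12 and 77.30 in neurites. The neurite libraries were both higher, but log2 FC_N/S was 0.29 (SE 0.116, adjusted p = 0.109) and missed the test. Stau1 had 74.45 and 82.70 CPM in soma and 64.23 and 49.00 in neurites. It was lower in both neurite libraries, with log2 FC_N/S -0.54 (SE 0.132, adjusted p = 0.0184), short of the 1.5-fold limit. As each library was left out in turn, Stau1 was between -0.383 and -0.711 with adjusted p from 0.0147 to 0.254, and it passed both limits only without WT Ctrl neurite replicate 1. In the fit on all 16 libraries its adjusted p was 0.691.

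Cpeb1 and Hnrnpa2b1 showed the same pattern as Stau1, lower in neurites by the test but below the fold limit. Cpeb1 was at 18.77 and 21.75 CPM in soma and 16.28 and 15.27 in neurites (log2 FC_N/S -0.43, SE 0.133, adjusted p = 0.0483). Hnrnpa2b1 was at 247.9 and 268.5 CPM in soma and 205.9 and 176.3 in neurites (log2 FC_N/S -0.50, SE 0.145, adjusted p = 0.0360). By adjusted p alone, 1 member was thus higher and 3 were lower in neurites, beside 10.9% and 8.52% of all genes. Neither test was stable: as each library was left out, adjusted p was 0.107 to 0.499 for Cpeb1 and 0.0611 to 0.329 for Hnrnpa2b1, and Cpeb1 also missed the test with DESeq2 (adjusted p = 0.0605) and RLE scaling (0.0655). The fragile X family and Syncrip missed the test: log2 FC_N/S was 0.00 (SE 0.147) for Fmr1, -0.25 (SE 0.114) for Fxr1, -0.38 (SE 0.152) for Fxr2 and -0.19 (SE 0.114) for Syncrip.

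The neurite fraction also differed in marker mRNAs of other cells and in nuclear RNA. Summed astrocyte markers were at 1256 to 1272 CPM in WT Ctrl soma and 2097 to 3377 in neurites, with 6 of 11 called higher, and fibroblast and vessel markers at 16.3 to 21.1 and 38.7 to 91.0, with 6 of 10 tested called higher. No marker of the astrocyte list was at 0 in these libraries. Summed neuron markers were higher in neurites too, at 3494 and 3699 CPM in soma and 4744 and 5110 in neurites. This sum includes Map2, which is also among the dendritic cargo mRNAs below. Of the 10 neuron markers, 2 were called higher and 4 had values below 0. Their median log2 FC_N/S was 0.04, against -0.10 over all genes tested. In the oligodendrocyte lineage and microglia lists, 1 of 6 tested was called higher in each. Nuclear noncoding RNAs had 3 of 7 called lower in neurites. Beside these counts, 8.99% of all genes were called higher in neurites and 4.52% lower. Of all 16 libraries, those of KCl-treated Mettl3 KO replicate 1 had the most astrocyte, oligodendrocyte lineage, microglia and fibroblast markers and the fewest neuron markers. Purb had its lowest levels there, at 143.8 CPM in soma and 135.6 in neurites. Stau2 (37.78 and 38.25 CPM) and Pura (27.46 and 20.84) were also at their lowest in these libraries. Hnrnpa2b1 (781.8 and 699.5 CPM) and Fxr1 (60.51 and 82.73) were at their highest. The part of these cells in the WT member values was not tested.

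**Figure D3:**
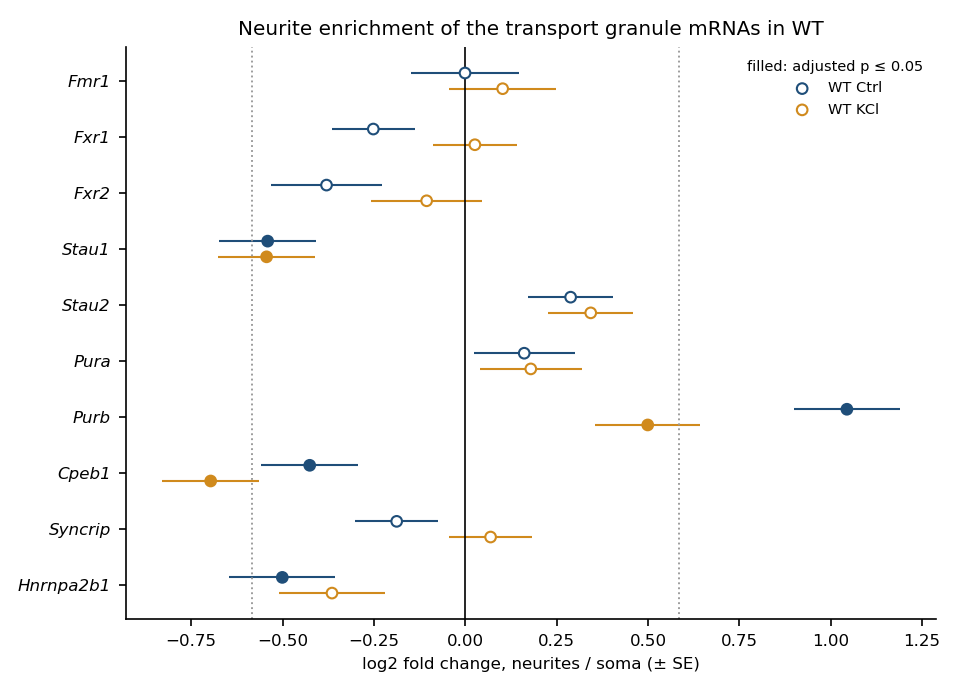
Log2 neurite-to-soma ratio of each member with its SE in WT Ctrl and WT KCl (edgeR quasi-likelihood fit on 8 WT libraries), with dotted lines at 1.5-fold and filled points at adjusted p of at most 0.05. Purb in Ctrl (1.04) and Cpeb1 in KCl (-0.70) are the points that pass both limits.

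After KCl, Cpeb1 was the member called, and it was lower in neurites. It had 31.54 and 35.06 CPM in WT KCl soma and 19.83 and 20.85 in WT KCl neurites, with no overlap. Its log2 FC_N/S was -0.70 (SE 0.132, 0.617-fold, edgeR adjusted p = 0.00790). Among all genes, 6.84% were called higher in KCl-treated neurites and 2.70% lower. The Cpeb1 call was lost without either neurite library (adjusted p = 0.0793 without replicate 1 and 0.0538 without replicate 2) and in the fit on all 16 libraries (0.955).

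By adjusted p alone, 1 member (Purb) was higher and 2 were lower in KCl-treated neurites, beside 8.53% and 4.73% of all genes. Purb had 346.7 and 276.3 CPM in WT KCl soma and 434.1 and 435.9 in WT KCl neurites, both neurite libraries again higher, with log2 FC_N/S 0.50 (SE 0.143, adjusted p = 0.0441) below the fold limit. Stau1 was at 102.9 and 106.3 CPM in soma and 74.30 and 67.71 in neurites (log2 FC_N/S -0.54, SE 0.132, adjusted p = 0.0234). Stau2 had 72.98 and 59.76 CPM in soma and 85.63 and 80.72 in neurites (0.34, SE 0.116, adjusted p = 0.0797). The Purb and Stau1 tests depended on single libraries, with adjusted p of 0.0136 to 0.198 and of 0.0261 to 0.160 as each was left out. Purb also missed the test with RLE scaling (0.0572), with the 4 libraries of the comparison alone (0.0684) and with all 16 (0.991), and passed the fold limit as well without WT KCl soma replicate 1 (0.68). The remaining members were between -0.37 for Hnrnpa2b1 and 0.18 for Pura. In these libraries, 3 of 11 astrocyte markers were called higher in neurites, beside 6.84% of all genes. Their summed levels were 1683 to 1696 CPM in soma and 2380 to 2838 in neurites. However, 6 of the 11 had values below 0, and their median log2 FC_N/S was -0.145, against -0.033 over all genes tested. Gfap alone was at 670.3 and 611.1 CPM in soma and at 1287 and 1505 in neurites.

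Ratios of related mRNAs within a library do not depend on its depth or scaling, and were compared between the 4 neurite and 4 soma libraries of WT by an exact two-sided permutation test, whose smallest possible p is 0.0286. Stau2 relative to Stau1 was higher in all 4 neurite libraries than in any soma library. The mean log2 ratio of counts was 0.38 ± 0.20 (SD, n = 4) in neurites and -0.48 ± 0.26 in soma, a difference of 0.86 or 1.82-fold (exact permutation p = 0.0286, adjusted over the 4 ratios 0.0571). The 4 libraries a side came from 2 litters, with soma and neurites of the same inserts, so this p covers the spread of libraries and not of litters. The difference was 0.84 in Ctrl and 0.89 in KCl. Per length, the level of Stau2 was 0.769 and 0.689 of that of Stau1 in Ctrl soma but 1.19 and 1.42 in Ctrl neurites, and in each of the 8 WT libraries the more abundant Staufen mRNA was Stau1 in soma and Stau2 in neurites.

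Purb relative to Pura showed the same separation. The mean log2 ratio was 3.26 ± 0.07 in neurites and 2.66 ± 0.34 in soma (SD, n = 4), a difference of 0.60 or 1.52-fold (exact permutation p = 0.0286, adjusted 0.0571). It was 0.88 in Ctrl and 0.32 in KCl. In the fragile X family the ratios overlapped between compartments. Fxr1 to Fmr1 differed by -0.17 (exact permutation p = 0.143) and Fxr2 to Fmr1 by -0.30 (exact permutation p = 0.229). In Mettl3 KO the Stau2 to Stau1 difference was 0.54 and that of Purb to Pura 0.36, and the groups overlapped (adjusted exact permutation p = 0.429 and 0.343). The KO log2 ratio of Stau2 to Stau1 was -0.68, -0.37, -1.45 and -0.93 in soma and 0.34, -0.01, -1.37 and -0.24 in neurites, with Ctrl replicates before KCl replicates.

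**Figure D4:**
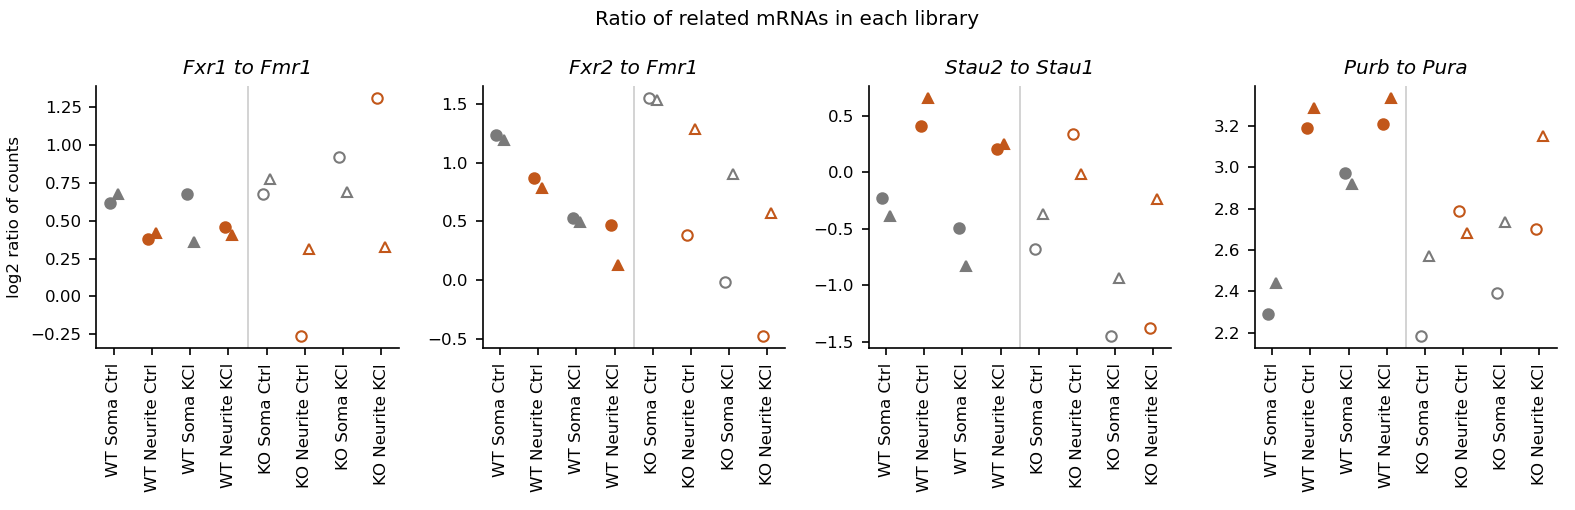
Log2 ratio of counts of related mRNAs in each of the 16 libraries, WT (filled) on the left and Mettl3 KO (open) on the right of each panel, soma in grey, neurites in orange, replicate 1 as circles and replicate 2 as triangles. In WT the Stau2 to Stau1 and Purb to Pura ratios of neurite libraries are all above those of soma libraries, by 0.86 and 0.60 in the mean.

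The next comparison asked how the members responded to depolarisation in WT. None passed the 2-fold rule in soma or neurites by edgeR or by DESeq2, where 3.80% of all genes rose and 3.01% fell in soma, and 3.24% rose and 1.70% fell in neurites. At an unadjusted p of at most 0.05 (edgeR), 4 members were higher and 1 lower in soma, beside 11.7% and 14.8% of all genes, and 5 were higher in neurites, beside 12.6%. The changes that passed the adjusted test were moderate: Cpeb1, Hnrnpa2b1 and Purb were higher in KCl-treated soma and Fxr2 lower, and Hnrnpa2b1 was higher in KCl-treated neurites. By adjusted p alone, 6.31% of all genes were higher and 7.31% lower in soma, and 5.28% were higher and 3.17% lower in neurites. With a limit of 1.5-fold, Cpeb1 and Hnrnpa2b1 were called higher and Fxr2 lower in soma (5.26% and 6.01% of all genes), and Hnrnpa2b1 was called higher in neurites (4.45% of all genes, with 2.83% lower).

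Hnrnpa2b1 was higher in both compartments. It went from 247.9 and 268.5 CPM in Ctrl soma to 342.1 and 451.6 in KCl soma, and from 205.9 and 176.3 in Ctrl neurites to 289.8 and 321.6 in KCl neurites. In neither compartment did the groups overlap. The log2 change was 0.62 in soma (SE 0.145, adjusted p = 0.0172) and 0.76 in neurites (SE 0.145, adjusted p = 0.00925). Cpeb1 went from 18.77 and 21.75 CPM to 31.54 and 35.06 in soma, a log2 change of 0.72 (SE 0.132, adjusted p = 0.00504). In neurites its log2 change was 0.45 (SE 0.134, adjusted p = 0.0688), from 16.28 and 15.27 CPM to 19.83 and 20.85.

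Purb passed the adjusted test in soma and missed it in neurites. Its soma levels were 216.5 and 219.1 CPM in Ctrl and 346.7 and 276.3 in KCl (log2 change 0.51, SE 0.143, adjusted p = 0.0377), and in neurites the log2 change was -0.03 (SE 0.142, adjusted p = 0.923). Fxr2 had 51.80 and 47.22 CPM in Ctrl soma and 29.99 and 35.81 in KCl soma, a log2 change of -0.59 (SE 0.152, adjusted p = 0.0275). In neurites Fxr2 had 45.02 and 34.71 CPM in Ctrl and 32.45 and 28.11 in KCl, and the log2 change of -0.31 missed the test (adjusted p = 0.260). Stau1 was at 0.41 in both soma (adjusted p = 0.0651) and neurites (adjusted p = 0.0895), while Fmr1, Fxr1, Stau2, Pura and Syncrip missed the test in both. Astrocyte markers were higher in KCl-treated soma too, at 1683 to 1696 CPM against 1256 to 1272, and their part in these changes was not tested. In the fit on all 16 libraries none of these changes passed the test, with adjusted p of 0.441 to 0.862 in soma and 0.590 for Hnrnpa2b1 in neurites. As each library was left out, the highest adjusted p was 0.0652 for Cpeb1, 0.119 for Hnrnpa2b1, 0.154 for Purb and 0.287 for Fxr2 in soma, and 0.0965 for Hnrnpa2b1 in neurites.

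**Figure D5:**
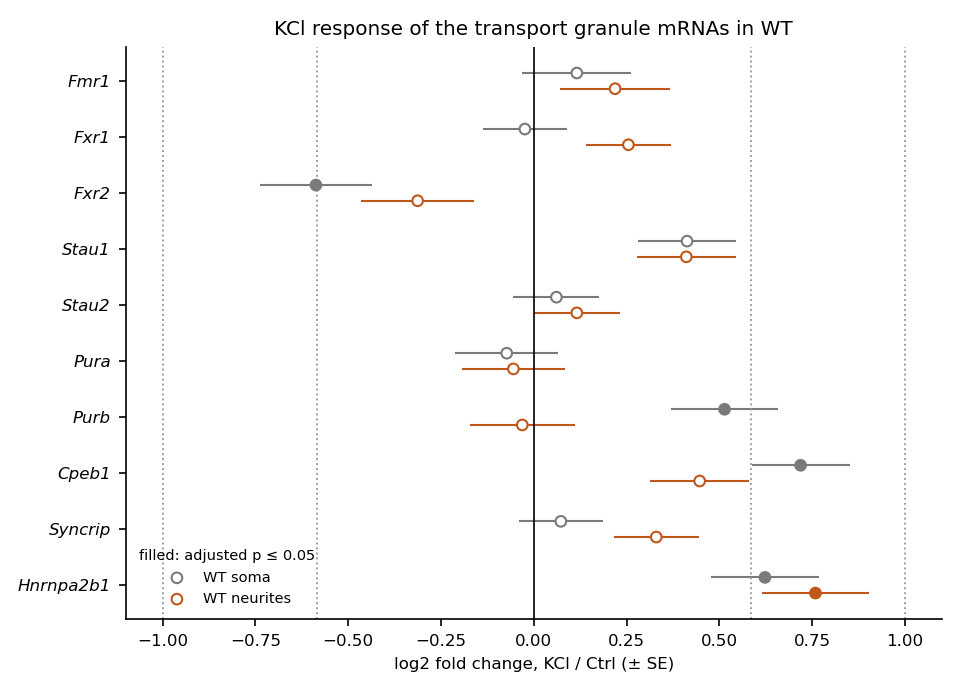
Log2 change from Ctrl to KCl of each member with its SE in WT soma (grey) and WT neurites (orange), with dotted lines at 1.5-fold and 2-fold and filled points at adjusted p of at most 0.05. No point reaches the 2-fold lines, and Hnrnpa2b1 is filled in both compartments (0.62 and 0.76).

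Whether KCl shifted neurite enrichment was tested as a difference of the 2 ratios, with 1 term for each pair of soma and neurite libraries with the same replicate number, taken as 1 insert, and with the limits of 1.5-fold and unadjusted p at most 0.05. No member passed by edgeR, where 2.00% of all genes were called higher and 1.35% lower (465 and 314 genes, but 343 and 447 with RLE scaling). Purb came closest, its log2 FC_N/S lower by KCl with a change of -0.53 (SE 0.202, unadjusted p = 0.0291, adjusted p = 0.999), or 0.695-fold. It was the single member at an unadjusted p of at most 0.05, beside 2.59% of all genes higher and 1.57% lower. Purb passed the fold limit with DESeq2 (-0.59, unadjusted p = 0.0150) and with RLE scaling in edgeR (-0.59, unadjusted p = 0.0185). When each library was left out in turn, the change was between -0.345 and -0.805. Without the insert terms it was -0.55, and no member was called.

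In Mettl3 KO no member, and no gene of the 23099 tested, was called by edgeR for neurite enrichment or KCl response (percent called 0 in each), and DESeq2 called no member but 8 genes for untreated enrichment, 0 for KCl-treated enrichment, 270 for KCl in soma and 251 for KCl in neurites. No member was at an unadjusted p of at most 0.05 for enrichment, beside 3.75% of all genes higher and 1.51% lower in Ctrl, and 0.0606% and 0.571% in KCl. Purb was at 201.9 and 238.0 CPM in KO Ctrl soma and 258.9 and 350.8 in KO Ctrl neurites. Its log2 FC_N/S there was 0.41 (SE 0.497). Stau1 had 94.47 and 100.5 CPM in KO Ctrl soma and 67.35 and 71.48 in neurites (-0.56). The SE for Purb was 0.144 in WT, so the KO libraries measured enrichment far less precisely, and a count of 0 there does not show that enrichment was absent.

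At an unadjusted p of at most 0.05, 2 members were higher after KCl in KO soma and 3 in KO neurites, beside 3.64% and 4.23% of all genes. None of them passed the adjusted test. Hnrnpa2b1 had 200.2 and 353.6 CPM in KO Ctrl soma against 781.8 and 601.7 in KO KCl soma (log2 change 1.32, adjusted p = 0.759). In KO neurites it had 194.5 and 207.4 against 699.5 and 407.8 CPM (1.47). Cpeb1 had 9.71 and 12.94 CPM in KO Ctrl soma and 22.46 and 31.63 in KO KCl soma (1.26). Without both libraries of KCl-treated KO replicate 1, the soma and neurite changes were 1.12 and 1.12 for Hnrnpa2b1 and 1.48 and 1.10 for Cpeb1. In KO neurites Cpeb1 went from 7.24 and 13.18 CPM to 28.49 and 20.56 (1.26). The neurite change of Fxr1 was 1.20, from 24.05 and 27.41 CPM to 82.73 and 34.80, and went to 0.54 without that replicate. The library with 82.73 was the one with 19318 CPM of astrocyte markers and 8236 CPM of oligodendrocyte lineage markers.

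Between genotypes, 0 members were called in soma or neurites by edgeR or DESeq2, beside 0.0643% of all genes higher and 0.124% lower in KO soma, and 0.0600% and 0.111% in KO neurites. The wide spread of the KO libraries entered these fits, so a count of 0 does not show that levels were equal. Cpeb1 was the single member at an unadjusted p of at most 0.05, in soma, where 4.50% of all genes were higher and 4.44% lower. It had 18.77 and 21.75 CPM in WT Ctrl soma and 9.71 and 12.94 in KO Ctrl soma (log2 change -0.82, SE 0.319, adjusted p = 0.459). In neurites the levels were 16.28 and 15.27 in WT and 7.24 and 13.18 in KO, with a log2 change of -0.64. Purb also had a log2 change of -0.64 in neurites, where its KO libraries at 258.9 and 350.8 CPM lay below the WT libraries at 416.8 and 520.4. Cell markers differed with genotype too: all 11 astrocyte markers had values above 0 in KO against WT (median log2 change 0.99 in soma and 0.86 in neurites), and 9 of 10 neuron markers were below 0 in neurites (median -0.51), though none passed the adjusted test. KO Ctrl neurite replicate 1, with the lower Purb level, had 7456 CPM of astrocyte markers against 3053 in replicate 2. Their part in the genotype values was not tested.

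The test of whether neurite enrichment itself differed between genotypes called no member, beside 2.96% of all genes higher and 1.33% lower in KO, and none was at an unadjusted p of at most 0.05. The KO spread limited this test too. Purb had the largest change of the members, -0.68 in log2 FC_N/S (SE 0.306, unadjusted p = 0.0534). It passed both limits without KO Ctrl replicate 2 of soma (-0.82) or of neurites (-0.82), and was between -0.480 and -0.866 as each library was left out. Without the insert terms, 312 instead of 1001 genes were called, no member among them, and Purb was at -0.68.

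The 45 other RNA-binding and granule proteins listed with the members moved in both directions. In WT Ctrl neurites, 4 were called higher and 3 lower, shares near the 8.99% and 4.52% of all genes. The poly(A)-binding Pabpc1 (2.83-fold, edgeR adjusted p = 0.000213), the cold-shock protein Ybx1 (3.86-fold, adjusted p = 0.000251) and the splicing and stability regulator Celf4 (log2 1.01, adjusted p = 0.000829) led those called higher. Those called lower included the mainly nuclear helicases Ddx5 and Dhx9, named here after their values were seen. With log2 FC_N/S of 2.33, 1.02 and 0.75, Ybx1, Pabpc1 and Celf4 also led the 6 called higher after KCl, where 2 were called lower (6.84% and 2.70% of all genes). Ybx1 and Pabpc1 mRNAs are present in glia as well as neurons. The summed astrocyte markers given above were also higher in neurites, though after KCl 6 of the 11 had values below 0. The part of glia in the Ybx1 and Pabpc1 values was not tested.

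Dendritic cargo mRNAs, the kind of RNA that such granules carry, gave a scale for these values. In WT Ctrl neurites 8 of 12 were called higher and none lower, against 8.99% and 4.52% of all genes, among them Camk2a (log2 FC_N/S 2.06), encoding a synaptic kinase, the postsynaptic Ddn (1.86) and the microtubule-binding Map2 (1.73). In KCl-treated WT 8 were higher and 1 lower, against 6.84% and 2.70%. The Purb value of 1.04 was below those of the 3 named cargo mRNAs, which were picked by smallest p. It was above the median of 0.815 over all 12, of which 3 had values below 0. After KCl, the log2 change in soma was 7.16 for Arc and 3.13 for Bdnf, with 3 of 12 cargo mRNAs called higher (3.80% of all genes), whereas the largest member change in soma was the 0.72 of Cpeb1. Of the 45 listed proteins, Igf2bp2 rose (log2 change 2.21) and Mov10 fell (-1.64) in KCl-treated soma. In neurites Igf2bp2 (2.12) and the helicase Ddx3x (1.02) rose and Mov10 (-1.19) fell. In the KCl change of neurite enrichment 3 of the 45 were called higher (2.00% of all genes), among them Hnrnpu (0.62) and Khsrp (0.75), and 1 without the insert terms. In the genotype change, Cpeb2 (-0.78) of the 45 and Map2 (-0.93) of the cargo were called lower in KO.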

How the data were processed

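The authors made cDNA libraries from 50 ng total RNA with a kit that does not mark strand, trimmed the reads with Flexbar, aligned them with STAR 2.7.7a to mm10 and counted exons per gene with featureCounts 2.0.1, multi-mapping reads included. The deposited values are counts per gene, with the 37 mitochondrial genes at 0. For DART-seq the authors deposited sites with the edited fraction and one score per RNA. Columns of their own fold changes and p-values were not used. The members and lists were chosen with earlier results of these data known.

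Counts were fitted with edgeR 4.0.16 (TMM, quasi-likelihood, genes with mean count of at least 10) in R 4.3.3: WT comparisons on 8 WT libraries, Mettl3 KO comparisons on 8 KO libraries, genotype comparisons on all 16. P-values were adjusted by Benjamini-Hochberg over all genes tested. Calls needed 1.5-fold (2-fold for KCl) and adjusted p of at most 0.05, or, for changes of neurite enrichment, 1.5-fold and unadjusted p of at most 0.05. The text names all 10 members and, from the 2 other lists, at most 3 called genes per comparison by smallest p with mean count of at least 100. An item withheld for evaluation is not reported here. Alternatives were DESeq2 1.42.0, RLE scaling, other count filters, all 16 libraries, a replicate block, and leaving out each library. The WT fits were restricted to WT because of the KO replicate spread. Reads carry no molecular identifiers. The script was tested on simulated data, where fits with the KO libraries missed most of the added changes at an adjusted p of at most 0.05. Replicate numbers were not shown to pair libraries.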

Additional observations from a re-analysis of the deposited data

How the results depend on the processing

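With all 16 libraries in 1 fit, no member was called for neurite enrichment, with 0 in untreated and 0 in KCl-treated WT, and no gene of 23335 either, against 3133 and 2213 genes in the WT fits. Over the same 16 libraries, the Stau2 to Stau1 and Purb to Pura differences were 0.70 and 0.48, with adjusted exact permutation p of 0.0398 and 0.0249. These p-values also cover the spread of libraries and not of litters, because libraries that shared an insert or a litter were permuted as separate. For the KCl change in enrichment, 1 member (Purb) was called with DESeq2 and 1 with RLE scaling. At 1.5-fold, 3 members were called for KCl in WT soma and 1 in neurites. Leaving out each library gave 1 to 2 members for untreated WT enrichment, 0 to 2 for KCl-treated WT, 0 to 1 for the KCl change and 0 to 1 for the KO change. Of 149 alternative counts of called members, 133 were within 1.5 times the reported one, but in 10 of the 12 comparisons that count was 0, and in the KO fits no gene was called; counts of the 45 listed proteins moved in 43 of 149 and of cargo in 29 of 149. Of 1490 alternative member values, none that was called reversed, and 132 not called in either fit changed sign. Counts over all genes moved more: 44 genes were called between genotypes in soma by edgeR, 413 by DESeq2, 2650 without KO soma replicate 1, 5 and 4 without WT soma replicate 1 or 2 and 0 with the 4 libraries alone, and in neurites 40, 306 by DESeq2 and 5 to 353 over all alternatives. Over all alternatives that kept the p rule, the counts were 0 to 3809 for untreated and 0 to 2790 for KCl-treated WT enrichment, 332 to 2615 (reported 1581) for KCl in soma, 254 to 1761 (reported 1147) in neurites, 285 to 1666 (reported 779) for the KCl change and 274 to 5087 (reported 1001) for the KO change; with no filter on counts, 176, 2, 780 and 742 genes were called in the 4 comparisons within KO. With the replicate block, member counts were 1 (Purb), 1 (Cpeb1) and 0 elsewhere; correlations of same-numbered libraries were -0.137 to 0.189 apart from 0.898 in KCl-treated KO, so numbers were not shown to pair libraries. With crossed numbers, chosen after seeing the data, untreated WT also gave 1. The spread in Mettl3 KO limited what could be detected there.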
